A study of Mus musculus with 8 samples.

Results

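The cyclins, cyclin-dependent kinases (CDKs) and CDK inhibitors that govern the G1 phase of the cell cycle, with the retinoblastoma gene and the transcription factor that it restrains, were followed at the level of mRNA in cultured OT-I CD8+ T cells that had received GC7 or its vehicle. Members were the 10 genes *Ccnd2*, *Ccnd3*, *Ccne1*, *Ccne2*, *Cdk4*, *Cdk6*, *Cdkn1b*, *Cdkn2c*, *Rb1* and *E2f1*, taken by symbol from a fixed list and matched to Ensembl genes. All 10 were found among the 55536 genes of the count tables, and all 10 passed the filter on low counts.

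In G1, D-type cyclins, whose synthesis follows mitogens and cytokines such as IL-2, bind CDK4 or CDK6 and phosphorylate the retinoblastoma protein, which lets go of E2F factors. E2F factors then drive the genes of DNA replication and the E-type cyclins, which activate CDK2 and carry the cell into S phase. INK4 proteins block CDK4 and CDK6 by binding the kinase, and CIP/KIP proteins bind whole cyclin-CDK complexes. Activated CD8+ T cells pass through this sequence very fast, with cyclin D2, cyclin D3 and CDK6 as prominent members of the lymphocyte version of the machinery.

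The cells came from lymph nodes of C57BL/6 mice carrying the OT-I T cell receptor transgene, specific for the ovalbumin peptide SIINFEKL, on a Rag-1KO background with CD45.1 or CD45.2, a background without other mature T or B cells. The donors were 5 to 12 weeks old and their sexes were randomised. Both groups received 100 nM SIINFEKL for 2 days and then 20 ng/ml recombinant human IL-2 for 2 days, the Mock group with the acetic acid vehicle (4 libraries) and the GC7 group with 10 µM GC7 (4 libraries). GC7 resembles spermidine and competes with it for DHPS, the enzyme that starts hypusination of the translation factor eIF5a. How many donors stood behind a library was not given in the sources used here. The replicates were stated to be biological, without saying that they were separate animals, so the p-values measure the spread between these libraries.

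Raw counts per gene summed to between 17528776 and 25284730 per library. TMM factors, which scale libraries to each other on the genes they share, were 0.93463 to 0.98306 in Mock and 1.0265 to 1.0395 in GC7, and Mock replicate 2 had both the lowest factor and the largest total. All 7 markers of CD8 T cells were detected and summed to 4510 to 5290 CPM in Mock and 3790 to 4120 CPM in GC7. With edgeR at an FDR under 0.01, *Lck*, *Thy1*, *Cd3e* and *Cd3g* were lower and *Cd8a* was higher, while *Cd8b1* and *Cd3d* did not pass. The 2 CD4 T cell markers summed to at most 1.4 CPM and the 2 NK cell markers to at most 0.728 CPM. Among 5 B cell markers *Ms4a1* and *Pax5* were at 0 in every library, and the sum, mostly *Cd79b*, was 7.02 to 10.1 CPM in Mock and 4.63 to 5.93 CPM in GC7. The 9 myeloid and dendritic cell markers summed to 1.07 to 1.28 CPM in Mock and 3.87 to 5.36 CPM in GC7, with *Zbtb46* as the sole marker above 1 CPM and *Siglech* at 0. The 6 erythroid and stromal markers, nearly all *Pecam1*, summed to 51.9 to 56.5 CPM in Mock and 30.5 to 32.9 CPM in GC7. The part of these markers in the results below was not tested.

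Of these 10 regulators 6 changed in mRNA under GC7, with 1 gene higher and 1 lower among both the D-type cyclins and the inhibitors. *Ccnd2*, *Cdk6*, *Cdkn2c* and *Rb1* rose, *Ccnd3* and *Cdkn1b* fell, and *Ccne1*, *Ccne2*, *Cdk4* and *E2f1* did not pass the test, which was an edgeR quasi-likelihood F test with an FDR under 0.01 over all 11189 genes tested. The 4 members higher stood beside 23.0% of all tested genes called higher, and the 2 members lower beside 23.5% called lower. For either direction it was 6 of 10 members beside 46.6% of all genes. Libraries of the groups did not overlap for 6 of the 10 members, and for 55.6% of all genes. No member passed a 2-fold change, which 3.17% of all genes did upwards, 5.31% downwards and 8.48% in either direction, and the largest change of a member under any alternative was 0.86 on the log2 scale. The median log2 fold change was 0.07 over the 10 members and 0.02 over all genes, and the median size of the change was 0.4 and 0.29. In bulk RNA, fewer cells that contain a transcript and less of it per cell cannot be told apart.

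**Figure D1:**
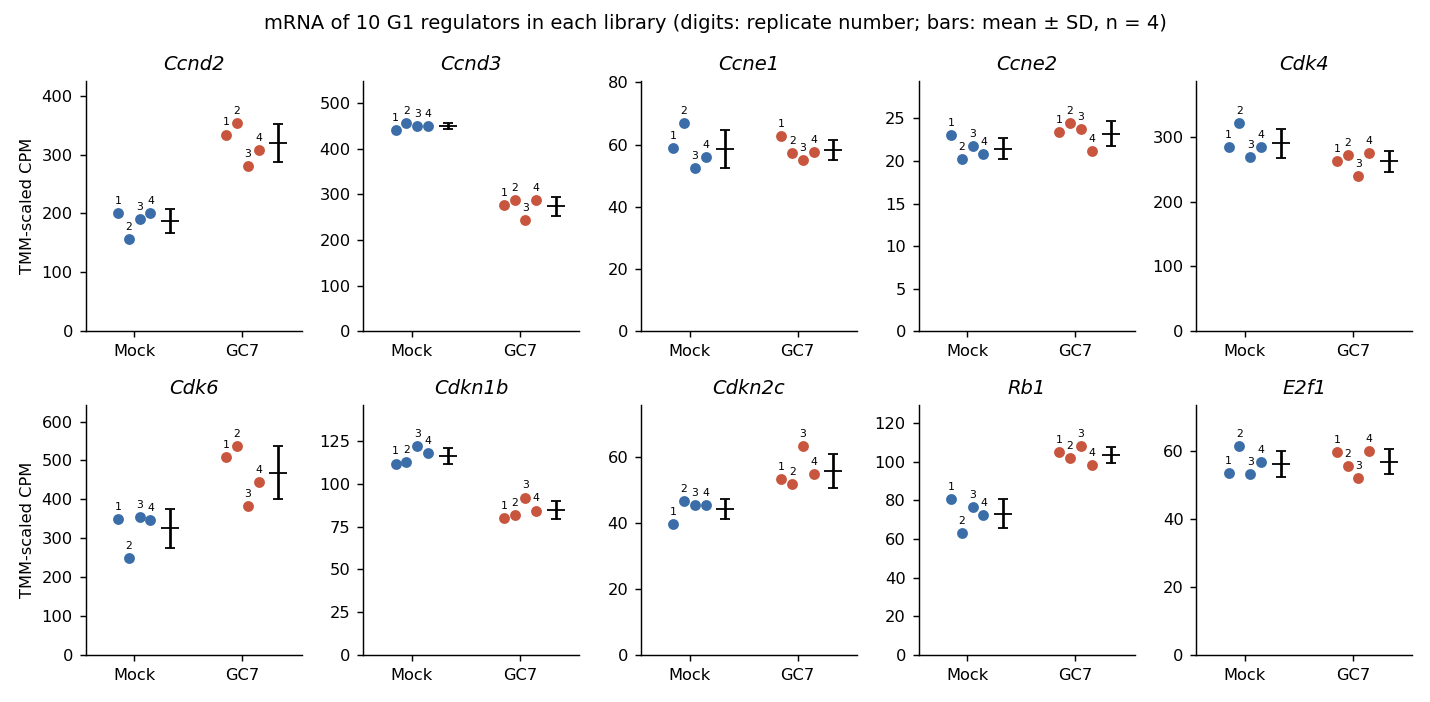
TMM-scaled CPM (y axis, linear, from 0) of each of the 10 genes in each library; blue points are Mock, red points GC7, digits are replicate numbers, and bars give mean ± SD of 4 libraries. In *Ccnd2*, *Ccnd3*, *Cdk6*, *Cdkn1b*, *Cdkn2c* and *Rb1* the blue and red points do not overlap, while in *Ccne1*, *Ccne2*, *Cdk4* and *E2f1* they do.

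Among the D-type cyclins, *Ccnd2* (ENSMUSG00000000184, GRCm38 chr6:127125162-127152193, minus strand) encodes cyclin D2, a form that IL-2 and other growth signals induce in T cells. Its scaled CPM was 201, 157, 191 and 200 in Mock replicates 1 to 4 and 334, 354, 280 and 308 in GC7 replicates 1 to 4. Every GC7 library lay above every Mock library, with Mock replicate 2 lowest of all. The mean went from 187 ± 20.8 (SD, n = 4) to 319 ± 32.1 (SD, n = 4), a 1.7-fold increase (95% interval 1.48 to 1.96, log2 fold change 0.77, SE 0.0935, edgeR adjusted p = 2.0e-05).

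*Ccnd3* (ENSMUSG00000034165, chr17:47505051-47599691, plus strand) encodes cyclin D3, which lymphocyte progenitors need for expansion. Its scaled CPM was 441, 457, 449 and 450 in Mock and 277, 288, 244 and 287 in GC7. The Mock libraries lay very close together, and all 4 GC7 libraries lay far below them. The mean fell from 449 ± 6.65 to 274 ± 20.6 (SD, n = 4 each), 0.61 of the Mock level (95% interval 0.553 to 0.674, log2 fold change -0.71, SE 0.0659, edgeR adjusted p = 2.0e-06). The last exon of *Ccnd3* shares 361 bases with *Bysl*, a ribosome biogenesis gene on the opposite strand that rose by a log2 fold change of 0.4 (edgeR adjusted p = 0.00221). Whether counting used strand was not given in the sources used here, so reads from the shared bases cannot be told apart. The processed pseudogene *Ccnd3-ps*, 96.3% identical over 881 bases, had at most 6 counts in any library.

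The ratio of cyclin D2 to cyclin D3 mRNA within a library does not depend on how libraries are scaled. In Mock the scaled CPM of *Ccnd2* was 0.456, 0.343, 0.426 and 0.444 of that of *Ccnd3*, and in GC7 it was 1.2, 1.23, 1.15 and 1.07 of it. Mock cells thus had more *Ccnd3* reads than *Ccnd2* reads in every library and GC7 cells more *Ccnd2* reads in every library. The log2 ratio moved by 1.49, from -1.27 ± 0.188 to 0.22 ± 0.0862 (SD, n = 4 each), a 2.8-fold shift. A two-sided exact permutation test gave p = 0.0286, the smallest that 4 against 4 libraries allow, and p = 0.0357 after Benjamini-Hochberg adjustment over the 5 pairs of genes compared. As *Ccnd2* and *Ccnd3* each separated the groups, in opposite directions, the ratio had to give this p, which is no further support.

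**Figure D2:**
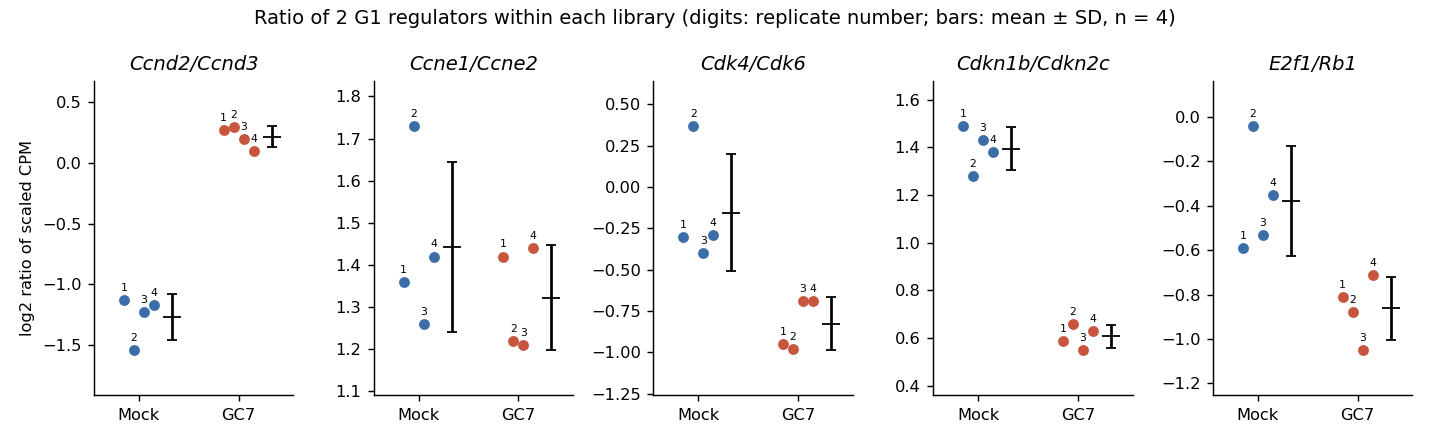
Log2 ratio of scaled CPM of 2 related genes within each library (y axis, log2 units, a separate range for each pair); blue points are Mock, red points GC7, digits are replicate numbers and bars are mean ± SD of 4 libraries. The groups separate for *Ccnd2*/*Ccnd3*, *Cdk4*/*Cdk6*, *Cdkn1b*/*Cdkn2c* and *E2f1*/*Rb1* and overlap for *Ccne1*/*Ccne2*; Mock replicate 2 lies apart in the *Cdk4*/*Cdk6* panel at 0.37.

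Of the kinases that D-type cyclins activate, 1 rose and the other gave no call. *Cdk6* (ENSMUSG00000040274, chr5:3341485-3531008, plus strand), the D-cyclin kinase most associated with blood cells, had scaled CPM of 350, 250, 354 and 348 in Mock and 510, 536, 384 and 445 in GC7. All GC7 libraries were above all Mock libraries, but the spread was wide, with replicate 3 lowest in GC7 and replicate 2 lowest in Mock. The mean rose 1.44-fold, from 326 ± 50.6 to 469 ± 67.9 (SD, n = 4 each; 95% interval of the fold 1.19 to 1.74, log2 fold change 0.53, SE 0.124, edgeR adjusted p = 0.00306). The call of *Cdk6* was lost without GC7 replicate 1 (0.48, adjusted p = 0.0109) or without GC7 replicate 2 (0.45, adjusted p = 0.0114).

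*Cdk4* (ENSMUSG00000006728, chr10:127063534-127067920, plus strand) encodes the other D-cyclin kinase. Its scaled CPM was 285, 322, 269 and 285 in Mock and 263, 272, 239 and 275 in GC7, so the groups overlapped between 269 and 275. The fitted log2 fold change was -0.15 with a 95% interval of -0.3 to 0.01, which did not pass the test (SE 0.0718, edgeR adjusted p = 0.0964). *Cdk4* shares 641 exonic bases with *Tspan31*, a tetraspanin gene on the opposite strand whose log2 fold change was -0.24 (edgeR adjusted p = 0.00476). Within libraries the *Cdk4* to *Cdk6* ratio went from 0.815, 1.29, 0.758 and 0.819 in Mock to 0.517, 0.508, 0.622 and 0.618 in GC7. No GC7 library reached the lowest Mock library, and the log2 ratio fell by 0.67 on average (exact permutation p = 0.0286, adjusted over 5 pairs 0.0357). Without Mock replicate 2 the difference was -0.5, the smallest over the 8 left-out libraries. As *Cdk6* alone already separated the groups, the ratio is no separate support.

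Of the inhibitors, *Cdkn1b* (ENSMUSG00000003031, chr6:134920401-134925513, plus strand) encodes the CIP/KIP protein p27, which is high in resting T cells and is destroyed as they start to cycle. Its scaled CPM was 112, 113, 122 and 118 in Mock and 79.9, 82.1, 92.1 and 84.5 in GC7. The highest GC7 library was well under the lowest Mock library. The mean fell from 116 ± 4.79 to 84.6 ± 5.3 (SD, n = 4 each), 0.728 of the Mock level (95% interval 0.662 to 0.8, log2 fold change -0.46, SE 0.0628, edgeR adjusted p = 5.5e-05).

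*Cdkn2c* (ENSMUSG00000028551, chr4:109660876-109667189, minus strand) encodes the INK4 protein p18, which binds CDK4 and CDK6. It had scaled CPM of 39.6, 46.5, 45.3 and 45.3 in Mock and 53.2, 51.8, 63.1 and 54.7 in GC7, with no overlap and with GC7 replicate 3 highest. The mean rose 1.26-fold, from 44.2 ± 3.11 to 55.7 ± 5.05 (SD, n = 4 each; 95% interval 1.12 to 1.42, log2 fold change 0.33, SE 0.0793, edgeR adjusted p = 0.00319). Without Mock replicate 1, the lowest library, the change was 0.28 and the call was lost (adjusted p = 0.0127). The *Cdkn1b* to *Cdkn2c* ratio was 2.82, 2.43, 2.69 and 2.61 in Mock and 1.5, 1.58, 1.46 and 1.54 in GC7. These values were tight within each group, and the log2 ratio fell by 0.79 (exact permutation p = 0.0286, adjusted over 5 pairs 0.0357). Here too each gene separated the groups, in opposite directions, so the p of the ratio was fixed and is no further support.

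The retinoblastoma gene *Rb1* (ENSMUSG00000022105, chr14:73183673-73325822, minus strand), the substrate of the D-cyclin kinases, had scaled CPM of 80.7, 62.9, 76.8 and 72.4 in Mock and 105, 102, 108 and 98.3 in GC7. The GC7 libraries lay within a narrow band above all Mock libraries, of which replicate 2 was the lowest. The mean rose 1.41-fold, from 73.2 ± 7.66 to 103 ± 4.18 (SD, n = 4 each; 95% interval 1.26 to 1.59, log2 fold change 0.5, SE 0.077, edgeR adjusted p = 1.4e-04). On the opposite strand *Rb1* exons overlap those of *Lpar6*, a lysophosphatidic acid receptor, by 408 bases and those of *Rcbtb2* by 488 bases. These neighbours changed by log2 fold changes of 0.56 (edgeR adjusted p = 5.6e-04) and -1.01 (adjusted p = 8.7e-07).

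*E2f1* (ENSMUSG00000027490, chr2:154559407-154569892, minus strand), an activating E2F that Rb1 binds, had scaled CPM of 53.5, 61.3, 53.1 and 56.7 in Mock and 59.7, 55.6, 52.1 and 59.9 in GC7. The groups covered almost the same range, and the log2 fold change was 0.02 with a 95% interval of -0.14 to 0.17 (edgeR adjusted p = 0.852). Relative to *Rb1*, *E2f1* mRNA was 0.664, 0.975, 0.693 and 0.784 in Mock and 0.57, 0.544, 0.482 and 0.609 in GC7. Every GC7 library was under every Mock library, and the log2 ratio fell by 0.49 (exact permutation p = 0.0286, adjusted over 5 pairs 0.0357). As *E2f1* hardly changed and *Rb1* alone separated the groups, the ratio largely repeats the change of *Rb1* and is no separate support.

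The E-type cyclins, which work with CDK2 at the entry to S phase, gave no call. *Ccne1* (ENSMUSG00000002068, chr7:38097984-38107534, minus strand) had scaled CPM of 59, 67, 52.4 and 55.9 in Mock and 62.7, 57.3, 55.1 and 57.6 in GC7. *Ccne2* (ENSMUSG00000028212, chr4:11191351-11204779, plus strand) had scaled CPM of 23, 20.2, 21.8 and 20.8 in Mock and 23.4, 24.5, 23.8 and 21.2 in GC7. For *Ccne1* all 4 GC7 libraries lay within the Mock range, and the log2 fold change was -0.01 (95% interval -0.18 to 0.16, edgeR adjusted p = 0.919), a sign that turned to 0.09 when libraries were scaled by their totals. For *Ccne2* it was 0.11 (95% interval -0.05 to 0.28, adjusted p = 0.216), and its exons overlap *Ints8* on the opposite strand by 609 bases, whose own change was -0.1 (adjusted p = 0.325). As folds of the Mock level, the intervals ran from 0.88 to 1.12 for *Ccne1* and from 0.965 to 1.22 for *Ccne2*. The *Ccne1* to *Ccne2* ratio was 2.31 to 2.71 in GC7 and 2.4 to 3.31 in Mock, and its log2 difference of -0.12 was within the spread (exact permutation p = 0.429).

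**Figure D3:**
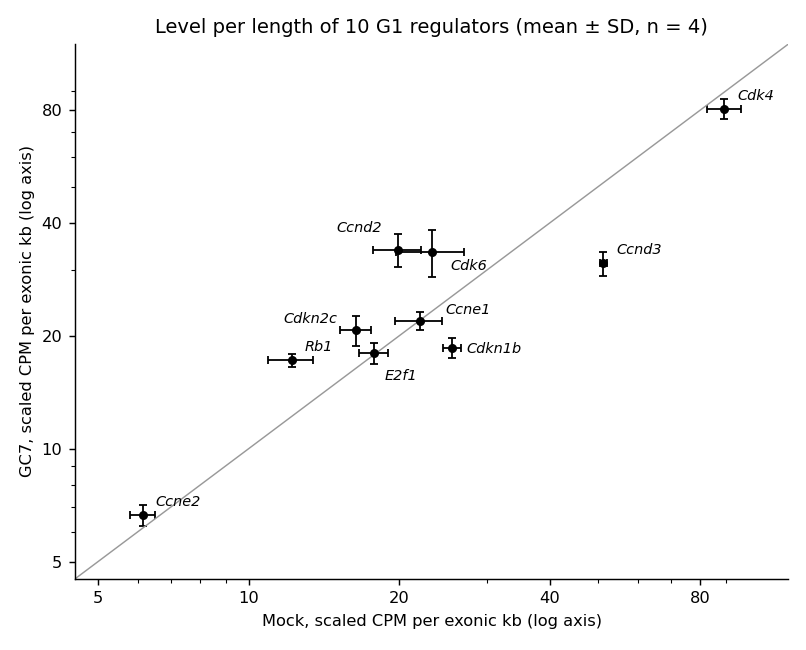
Mean scaled CPM per kb of annotated exon in Mock (x axis, log scale) and GC7 (y axis, log scale) for each of the 10 genes, with bars of ± SD over 4 libraries and a grey line of equal level. *Ccnd2* and *Cdk6* lie above the line at about the same GC7 level, 33.9 and 33.5, and *Ccnd3* and *Cdkn1b* lie below it.

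Scaled CPM per kb of exon gives a rough comparison of levels between genes. The length was that of all annotated exons of a gene together, and the transcripts in these cells may be shorter. Reads from bases shared with genes on the opposite strand may also be included, so the order below is approximate. *Cdk4* was highest in both groups, at 89.4 ± 6.97 in Mock and 80.7 ± 5.01 in GC7 (SD, n = 4 each), and *Ccne2* lowest at 6.14 ± 0.35 and 6.65 ± 0.411. In Mock the order below *Cdk4* was *Ccnd3* (51.2), *Cdkn1b* (25.5), *Cdk6* (23.3), *Ccne1* (22.0), *Ccnd2* (19.9), *E2f1* (17.8), *Cdkn2c* (16.4), *Rb1* (12.2) and *Ccne2*. The libraries of neighbours in this order overlapped from *Cdkn1b* down to *Cdkn2c*, whereas *Cdk4*, *Ccnd3*, *Rb1* and *Ccne2* each stood clear of their neighbours. In GC7 *Ccnd2* (33.9), *Cdk6* (33.5) and *Ccnd3* (31.2) came next after *Cdk4* and overlapped each other. They were followed by *Ccne1* (21.9), *Cdkn2c* (20.7), *Cdkn1b* (18.6), *E2f1* (18.0) and *Rb1* (17.2), again with overlapping neighbours. *Ccnd2* went from rank 6 to rank 2 and *Cdkn1b* from rank 3 to rank 7.

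Mock replicate 2 stood apart from the other Mock libraries in several of these genes, lowest in *Ccnd2*, *Cdk6* and *Rb1* and highest in *Cdk4*, *Ccne1* and *E2f1*. Without it the log2 fold changes were 0.7 for *Ccnd2*, -0.7 for *Ccnd3*, 0.42 for *Cdk6*, -0.47 for *Cdkn1b*, 0.36 for *Cdkn2c* and 0.44 for *Rb1*, all of which still passed (highest edgeR adjusted p = 0.00238, for *Cdk6*). The differences of the log2 ratios became 1.39 for *Ccnd2*/*Ccnd3*, -0.5 for *Cdk4*/*Cdk6*, -0.83 for *Cdkn1b*/*Cdkn2c* and -0.37 for *E2f1*/*Rb1*, with the groups still apart (exact permutation p = 0.0571, the smallest that 3 against 4 libraries allow).

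In the wider G1/S machinery, the largest changes among the 34 tested genes were those of other CDK inhibitors. *Cdkn1a*, which encodes the CIP/KIP inhibitor p21, a target of p53, had scaled CPM of 256 to 284 in Mock and 523 to 581 in GC7, and rose 2.08-fold (log2 fold change 1.06, SE 0.0626, edgeR adjusted p = 4.4e-08). *Cdkn2d*, which encodes the INK4 inhibitor p19, had 120 to 151 in Mock and 50.9 to 69 in GC7, and fell to 0.445 of the Mock level (log2 fold change -1.17, SE 0.0999, adjusted p = 1.0e-06). Both families of inhibitor thus held a gene that rose and a gene that fell, with *Cdkn1a* against *Cdkn1b* and *Cdkn2c* against *Cdkn2d*. *Cdkn2a* (-0.52, adjusted p = 0.0698) and *Cdkn2b* (-0.44, adjusted p = 0.0653) were low, at means of 4.76 to 6.87 CPM, and did not pass, while *Cdkn1c* was under the filter. Without Mock replicate 2 they were at -0.34 and -0.23, and without GC7 replicate 3 *Cdkn2a* was at -0.36.

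**Figure D4:**
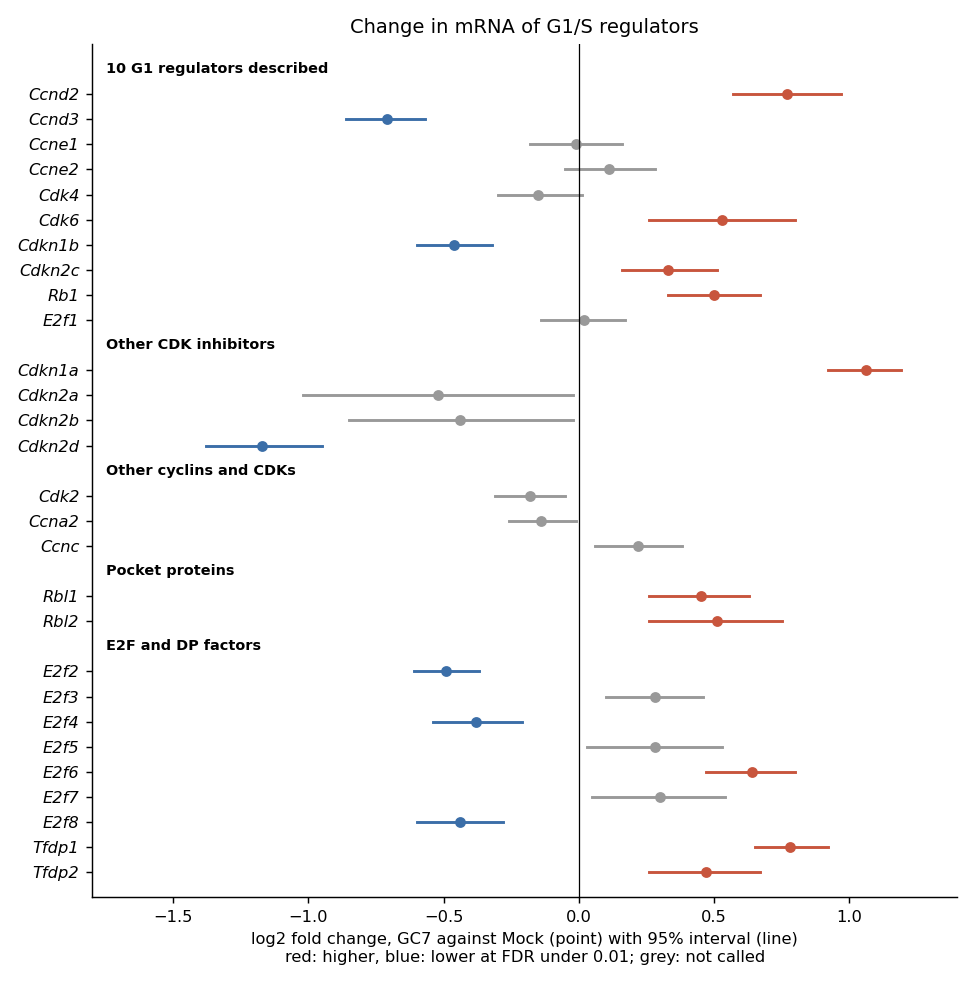
Log2 fold change of GC7 against Mock (x axis; point) with its 95% interval (line) from the edgeR fit for the 10 genes and for the tested genes of 4 related lists; red is higher and blue lower at an FDR under 0.01, and grey was not called. The 3 points furthest from 0 belong to *Cdkn2d* (-1.17), *Cdkn1a* (1.06) and *Tfdp1* (0.78).

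Other cyclins and CDKs of G1 and S gave no call with edgeR among 3 tested of 6 listed, beside 46.6% of all genes called in either direction. At an unadjusted edgeR p under 0.05, however, 1 was higher and 2 were lower, and DESeq2 called *Cdk2* lower. *Cdk2*, the partner of the E-type cyclins, had a log2 fold change of -0.18 (edgeR adjusted p = 0.0234), *Ccna2* -0.14 (adjusted p = 0.0633) and *Ccnc* 0.22 (adjusted p = 0.0231). *Ccnd1*, the third D-type cyclin, was at 0.477 ± 0.147 CPM in Mock and 0.365 ± 0.253 in GC7 (SD, n = 4 each), under the filter, so the D-type cyclin mRNA that could be tested was that of *Ccnd2* and *Ccnd3*.

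Both relatives of the retinoblastoma gene rose with *Rb1*, beside 23.0% of all genes called higher. *Rbl1* had a log2 fold change of 0.45 (SE 0.0861, edgeR adjusted p = 7.8e-04) and *Rbl2* one of 0.51 (SE 0.112, adjusted p = 0.00201). In each, as in *Rb1*, Mock replicate 2 was the lowest library, with 63.6 CPM for *Rbl1* and 65 CPM for *Rbl2*, against 82.4 to 85.3 CPM and 92.3 to 96.1 CPM in the other Mock libraries.

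Of 9 other E2F and DP factors, 3 rose and 3 fell, beside 23.0% and 23.5% of all genes. The DP partners *Tfdp1* (0.78, edgeR adjusted p = 5.3e-07) and *Tfdp2* (0.47, adjusted p = 0.00111) and the repressor *E2f6* (0.64, adjusted p = 1.8e-05) rose. The activator *E2f2* (-0.49, adjusted p = 9.3e-06), the pocket protein partner *E2f4* (-0.38, adjusted p = 0.00107) and the repressor *E2f8* (-0.44, adjusted p = 2.7e-04) fell. The activator *E2f3* (0.28, adjusted p = 0.0114), the repressor *E2f7* (0.3, adjusted p = 0.0373) and *E2f5* (0.28, adjusted p = 0.0534) did not pass.

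Among 11 genes that activate or turn over the G1 cyclins and CDKs, 4 rose and 1 fell, beside 23.0% and 23.5% of all genes. The 4 higher were 3 to 5 over the 16 alternatives. *Cdc25a*, the phosphatase that removes inhibitory phosphates from CDKs, rose (0.57, edgeR adjusted p = 4.4e-05), and so did *Fbxw7*, which targets cyclin E for degradation (0.4, adjusted p = 4.5e-04), *Wee1*, a kinase that inhibits CDKs (0.35, adjusted p = 0.00155), and *Ambra1*, which targets D-type cyclins for degradation (0.26, adjusted p = 0.00357). *Fzr1*, an activator of the anaphase-promoting complex in G1, had 171 to 202 CPM in Mock and 111 to 117 CPM in GC7 and fell by 0.68 on the log2 scale (edgeR adjusted p = 2.3e-06). *Skp2*, which targets p27 for degradation, had a log2 fold change of 0.4 and did not pass (adjusted p = 0.0165).

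Of 5 genes of the MuvB core, which joins with pocket proteins and E2F factors in the DREAM complex, *Lin52* rose (0.67, edgeR adjusted p = 0.00233) and *Lin9* rose (0.29, adjusted p = 0.0072), the second with its call lost under 8 of 16 alternatives. Over all 34 tested genes of these lists, 12 rose and 5 fell, beside 23.0% and 23.5% of all genes, with a median log2 fold change of 0.24 against 0.02 over all genes.

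Downstream, 20 E2F target genes of S phase gave 5 higher and 5 lower, beside 23.0% and 23.5% of all genes, with a median of 0.02 that was also the median of all genes. *Pold1* (-0.51, edgeR adjusted p = 1.2e-05) and *Mcm7* (-0.48, adjusted p = 1.3e-05), of DNA polymerase delta and the replicative helicase, fell most, and *Rrm2* (0.36, adjusted p = 1.4e-04), of ribonucleotide reductase, and *Prim1* (0.27, adjusted p = 0.00382), of DNA primase, rose most. The 5 higher became 2 to 3 under 12 alternatives, among them each library left out except Mock replicate 2. Of 12 mitosis genes 0 rose and 4 fell with edgeR, beside 23.0% and 23.5% of all genes, with *Ccnb2* (-0.52, adjusted p = 3.0e-05) and *Mki67* (-0.46, adjusted p = 6.0e-04) the most reduced and a median of -0.09. No mitosis gene was higher at an unadjusted p under 0.05 either, with edgeR, DESeq2 or limma-voom.

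The bases just ahead of the transcription start are where factors such as MYC, E2F and FOXO proteins can bind. RefSeq promoter windows (GRCm38.p6, 250 bases before the start) were at hand for 7 of the 10 genes, not for *Ccnd2*, *Ccne2* and *Rb1*, and 3 windows that hold no annotated exon are shown here as the D cyclin and the CIP/KIP inhibitor that fell and the D-cyclin kinase that gave no call. Capitals mark the E-box CACGTG, the site of MYC and related factors, in *Cdk4* and the GC box GGGCGG, on either strand, in the others. The windows are chr17:47504801-47505050 for *Ccnd3*, chr10:127063285-127063533 for *Cdk4* and chr6:134920151-134920400 for *Cdkn1b*, all on the plus strand and written 5′ to 3′, the second cut to 249 bases to leave out an exonic base.
Ccnd3: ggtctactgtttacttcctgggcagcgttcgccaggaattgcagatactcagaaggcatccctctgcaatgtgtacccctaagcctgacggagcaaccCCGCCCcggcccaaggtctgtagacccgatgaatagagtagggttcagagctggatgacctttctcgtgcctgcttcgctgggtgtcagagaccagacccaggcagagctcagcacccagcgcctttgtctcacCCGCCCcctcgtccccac
Cdk4: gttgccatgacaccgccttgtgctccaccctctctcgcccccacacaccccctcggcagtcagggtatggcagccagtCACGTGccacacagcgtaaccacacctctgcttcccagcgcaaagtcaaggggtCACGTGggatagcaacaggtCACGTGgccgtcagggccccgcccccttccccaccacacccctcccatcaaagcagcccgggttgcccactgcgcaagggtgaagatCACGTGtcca
Cdkn1b: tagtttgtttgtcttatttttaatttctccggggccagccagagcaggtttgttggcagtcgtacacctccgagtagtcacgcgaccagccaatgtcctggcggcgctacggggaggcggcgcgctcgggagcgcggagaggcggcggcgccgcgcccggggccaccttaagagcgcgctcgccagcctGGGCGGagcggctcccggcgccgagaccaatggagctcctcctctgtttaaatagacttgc

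The *Cdk4* window held 4 E-boxes, whose first bases lay at -172, -118, -98 and -11 from the start site. Of 32851 promoter windows of this length, 6.02% held at least 1 and 7 windows (0.0213%) held 4 or more. *Cdk6*, which rose, had 1 at -220, and no other member had one in these windows. The *Ccnd3* window shown held 2 GC boxes, at -152 and -18, and the *Cdkn1b* window 1 at -61, a motif that 32.7% of all windows held. Members that did not fall had GC boxes too, 4 in *Ccne1*, 4 in *E2f1*, 3 in the first *Cdkn2c* window and 1, left in lower case, in *Cdk4* at -80. The *Ccnd3* window shown also had the FOXO core GTAAACA, on the minus strand at -243, which 3.17% of windows held. The first *Cdkn2c* window had an E2F core (TTCCCGC or TTCGCGC or TTGCCGC or TTGGCGC) at -25, which 7.89% held. *Ccnd3* and *Cdkn2c* each had a second window. That of *Ccnd3* (chr17:47593217-47593466) held 1 GC box at -46 and no FOXO core. That of *Cdkn2c* (chr4:109665373-109665622) held no GC box and no E2F core. The first *Cdkn2c* window and the *E2f1* window lay in annotated exons over all 250 bases. The STAT core TTCNNNGAA, held by 7.02%, was in none of the members' windows. All motifs were searched on both strands and the marked ones overlapped no other, and a match describes letters in the window and not binding.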

How the data were processed

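Messenger RNA was sequenced from 8 libraries, 4 Mock and 4 GC7, grouped by their sample titles. The authors deposited raw counts per Ensembl gene for each library, without normalisation: paired-end reads were trimmed with Cutadapt, aligned to GRCm38 with STAR and counted with featureCounts. Strand setting and treatment of reads with several matches were not given in the sources used here, so overlapping genes and near-identical copies (BLAST version 2.17.0) are named beside the members. Reads were counted without molecular identifiers, so counts are not independent molecules.

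Genes over 3 CPM in at least 4 libraries were kept (11189; at least 52.59 counts at that minimum). Changes were fitted on the whole table with edgeR (version 4.0.16, R version 4.3.3): TMM factors, group as the only term, quasi-likelihood F test, Benjamini-Hochberg adjusted p and calls at an FDR under 0.01. Adjusted p-values in the text are from this fit, except where a left-out library, another fit or a ratio between genes is named. Standard errors are the log2 fold change over the square root of F, and 95% intervals use the fit's degrees of freedom. Values per library are TMM-scaled CPM. Ratios between genes used a prior count of 2 and two-sided exact permutation tests with a threshold of 0.05. On simulated counts the fit called 61 of 100 genes changed by 0.5 on the log2 scale and 96 of 100 changed by 1. It also called 2 unchanged genes. Far fewer genes were changed there than were called here, so the shares may differ. A gene without a call may therefore still have changed. The lowest chi-square per degree of freedom between replicate libraries was 2.598, so no pair of replicate libraries differed by read sampling alone. Libraries made separately from the same RNA or culture would not be seen this way.

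The alternatives tried for scaling were library totals, RLE factors and TMM factors computed without the genes of the mitochondrial genome. For the test they were limma-voom (version 3.58.1), DESeq2 (version 1.42.0) and a block for the replicate number, and for the filter filterByExpr and none. Each library was also left out, and ratios were repeated with a prior count of 0.5. Named are all members, a fixed set of other G1/S genes and at most the 2 largest increases and decreases past the FDR in each list; *Tfdp2*, *Wee1*, *Ambra1*, *Ccna2*, *Ccnc*, *E2f5*, the cell type markers and the overlapping neighbours are named beyond it, chosen once their values were known. The members and lists were chosen with earlier results of these data known. Promoter windows were taken from RefSeq (GRCm38.p6). Figures and ratios used Python (version 3.11.15), scipy (version 1.17.1) and matplotlib (version 3.10.9).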

Additional observations from a re-analysis of the deposited data

Results flagged for a closer look

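Dixon's ratio, the gap of the most extreme library to its nearest neighbour over the whole range of the group, was above its 95% critical value for 2 of 30 groups of 4 libraries tested, where chance gives about 1 in 20, or 1.5 of 30. Both concern Mock replicate 2. *Cdk6* was at 250 CPM in this library and at 348 to 354 CPM in the other Mock libraries (ratio 0.941), and the log2 *Cdk4*/*Cdk6* ratio was 0.37 there and -0.4 to -0.29 in the others (ratio 0.855). Without this library the *Cdk6* log2 fold change was 0.42 in place of 0.53 and still passed the edgeR test (adjusted p = 0.00238), and the difference of the log2 ratio was -0.5 in place of -0.67.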

How the results depend on the processing

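The 2 members lower in GC7 were 2 under all 16 alternatives and the 4 members higher were 3 to 4. *Cdk6* lost its call without GC7 replicate 1 or 2 (0.42 to 0.61 over the left-out libraries) and *Cdkn2c* without Mock replicate 1 (0.27 to 0.36). For *Ccne1*, with no call, the sign changed under library totals (0.09) and without GC7 replicate 3 or Mock replicate 2 (-0.06 to 0.06), and for *E2f1* without GC7 replicate 1 or 4 or Mock replicate 1 or 3 (-0.01 to 0.07). Genes over 2-fold higher went from 355 to 601 with filterByExpr and 773 with no filter, and genes lower from 594 to 1013 and 1189. These fits tested 14517 and 28350 genes in place of 11189. Scaling by library totals moved the median of all genes from 0.018 to 0.112, and the split of calls from 2579 higher and 2635 lower to 3346 and 2056. Among the other genes named, leaving out 1 library gave a call to *Cdk2* (Mock replicate 2, -0.2), *E2f3* (GC7 replicate 4, 0.34) and *Skp2* (Mock replicate 1, 0.49), and ended that of *Lin9* (any GC7 library, Mock replicate 1 or 4; 0.27 to 0.31) and *Prim1* (GC7 replicate 2, Mock replicate 1, 3 or 4; 0.25 to 0.27). With all libraries kept, *E2f3* and *Skp2* were called higher by DESeq2 (0.27 and 0.39) and under library totals (0.37 and 0.49). With no filter, *Skp2* (0.4) and *E2f7* (0.3) were called higher. The causes of these shifts were not tested.

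Same-numbered libraries were not shown to be paired: the correlations of their deviations from the group means were 0.2719, -0.1158, 0.2025 and -0.1825. With a replicate block in the fit, calls over all genes were 2382 higher and 2485 lower, and 4 members were higher and 2 lower, with *Cdk6* at 0.53 (edgeR adjusted p = 0.00899). The block ended the calls of *Lin9* (0.3) and *Prim1* (0.27) and gave one to *Cdkn2a* (-0.54), as did the fit with no filter (-0.52). The differences of the log2 ratios kept their direction in every alternative run, but the block (smallest exact permutation p = 0.125) and a left-out library (0.0571) cannot reach 0.05. *Cdkn1c*, *Ccnd1* and *Ccna1* were under the CPM minimum and were not tested.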
